A study of Mus musculus with 10 samples.

Results

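The abundant long noncoding RNAs (lncRNAs) of mouse macrophages are described here. They were chosen by their summed count: every row of the gene count table typed as lncRNA with at least 2000 counts over the 10 libraries, both genotypes added together. The rule took 60 of 10055 lncRNA rows, of which 3410 held any count, in a table of 56980 genes. Because the sum adds the genotypes, abundance selected the members and is given as a description. The difference between the genotypes was not a criterion, but near the bound the rule favours members that differ: for 9 of the 60, doubling the count of the lower genotype gives less than 2000. These were U90926 (827 counts in WT, 3049 in KO), Mexis (583, 1513), Gm32089 (670, 1341), 2610507I01Rik (974, 1395), Zfas1 (1382, 945), 4933412E12Rik (1410, 765), H2-K2 (1139, 937) and the uncalled A930007I19Rik (960, 1224) and 6820431F20Rik (1139, 996).

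RNA was sequenced from macrophages of mice labelled JAML-WT (5 libraries, WT) or JAMLM-KO (5 libraries, KO), and the genotype tag of the second group reads JAML Knockdown. Both groups were given 100 ng/ml of lipopolysaccharide for 8 h (LPS, which activates TLR4) followed by 5 mM adenosine 5'-triphosphate (ATP) for 30 min, so no unstimulated cells enter. How JAML was knocked out or down, and any promoter that drove this, is not given. The tissue the macrophages came from, the ages and whether libraries stem from separate animals are not given either. The spread that p-values measure may therefore be technical. In the table the second group is headed SI, which no label explains. It was taken to be KO by elimination, and every direction below rests on that. Jaml itself, the gene of a junctional adhesion molecule-like protein, could not check the labels: WT 1 and KO 4 held 2 counts each and the other 8 libraries 0, all under a floor of 3 counts (0.132 to 0.155 CPM, read counts scaled to library size; counting error only).

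Long noncoding RNAs are transcripts without a recognised long reading frame. Some, such as Xist, Malat1 and Neat1, stay in the nucleus and organise chromatin or nuclear bodies. Others are spliced precursors of small nucleolar RNAs or microRNAs, and many lie beside or across a protein-coding gene. In macrophages several are known to be switched on by TLR4 signalling or by lipid-sensing nuclear receptors.

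The promoter sequences of 5 members are shown because their levels carry the difference between the genotypes or because they belong to the inflammation-linked list. Each runs 5′ to 3′ on the gene's strand from 250 bases before to 50 bases after a RefSeq start in build GRCm38.p6. Capitals mark matches to the motifs searched, on either strand, which are AGGTCA (the nuclear receptor half-site), GGAAGT (ETS), TGANTCA (AP-1), TATAAA (named for the TATA box), TTGCNNAA (C/EBP), GAAANNGAAA (the interferon-stimulated response element or ISRE) and TTCNNNGAA (the STAT site called GAS). No matches overlap each other in these windows, and a match is a description of letters only.
U90926, chr5:92215359-92215658, minus strand: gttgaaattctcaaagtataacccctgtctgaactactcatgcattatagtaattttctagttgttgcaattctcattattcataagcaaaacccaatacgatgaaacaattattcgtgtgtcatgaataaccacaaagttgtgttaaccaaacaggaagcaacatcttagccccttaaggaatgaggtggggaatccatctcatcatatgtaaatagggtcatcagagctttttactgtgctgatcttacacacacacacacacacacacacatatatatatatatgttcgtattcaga
Mexis, chr4:53270183-53270482, minus strand: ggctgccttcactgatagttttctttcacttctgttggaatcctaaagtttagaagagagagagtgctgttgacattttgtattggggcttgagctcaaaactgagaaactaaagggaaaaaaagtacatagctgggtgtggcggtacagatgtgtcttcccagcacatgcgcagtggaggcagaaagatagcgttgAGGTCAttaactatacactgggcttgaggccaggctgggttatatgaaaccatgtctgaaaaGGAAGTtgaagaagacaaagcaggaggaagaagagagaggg
Gm20559, chr6:3346092-3346391, minus strand: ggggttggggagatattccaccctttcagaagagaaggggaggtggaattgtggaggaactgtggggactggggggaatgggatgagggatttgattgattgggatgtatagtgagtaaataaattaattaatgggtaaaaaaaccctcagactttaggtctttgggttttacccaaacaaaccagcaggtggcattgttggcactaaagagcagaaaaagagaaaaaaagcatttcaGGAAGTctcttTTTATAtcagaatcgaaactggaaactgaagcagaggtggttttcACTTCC
Morrbid, chr2:128429302-128429601, minus strand: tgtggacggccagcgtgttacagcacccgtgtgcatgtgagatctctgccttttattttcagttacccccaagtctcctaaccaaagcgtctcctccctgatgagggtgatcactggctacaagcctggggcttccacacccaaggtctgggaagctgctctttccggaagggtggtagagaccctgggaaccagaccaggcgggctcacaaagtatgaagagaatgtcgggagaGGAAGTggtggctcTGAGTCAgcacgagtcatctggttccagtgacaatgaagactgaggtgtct
Gm36161, chr13:120010092-120010391, plus strand: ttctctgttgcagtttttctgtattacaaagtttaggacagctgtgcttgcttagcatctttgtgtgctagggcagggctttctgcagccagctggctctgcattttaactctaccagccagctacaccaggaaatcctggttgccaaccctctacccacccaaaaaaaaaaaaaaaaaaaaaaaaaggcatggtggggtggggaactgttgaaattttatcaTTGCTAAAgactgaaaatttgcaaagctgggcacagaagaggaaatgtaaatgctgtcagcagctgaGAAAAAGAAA
The U90926 window held none of the 7 motifs. The Mexis window held a nuclear receptor half-site and an ETS match, the Gm20559 window a TATA match and 2 ETS matches, the Morrbid window an AP-1 and an ETS match, and the Gm36161 window an ISRE and a C/EBP match. Mexis and Gm20559 have further RefSeq starts, whose windows are not shown. Also not shown are the windows of AW112010 and Mir22hg, both on the inflammation-linked list. The window of AW112010, which was lower in KO, held none of the 7 motifs. That of Mir22hg, which was not called, held an ETS match.

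RefSeq start windows matched 33 of the 60 members by symbol, in 38 windows. Of 32544 windows in the whole table, 3.45% held the ISRE, 8.33% the GAS motif, 7.79% the AP-1 motif, 10.8% the C/EBP motif, 13.6% the TATA motif, 23.7% the ETS motif and 16.2% the nuclear receptor half-site. Among the 9 matched members that were lower in KO, 1 held the ISRE, 0 the GAS motif, 1 the AP-1 motif, 1 the C/EBP motif, 2 the TATA motif, 4 the ETS motif and 0 the half-site. Among the 18 that were not called, 1 held the ISRE, 3 the GAS motif, 1 the AP-1 motif, 3 the C/EBP motif, 2 the TATA motif, 7 the ETS motif and 3 the half-site. Of the 6 that were higher, 1 (Mexis) held the half-site and 1 (also Mexis) the ETS motif, and none held the other 5 motifs. With so few windows these counts are given as they stand.

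A pair of members are microRNA host genes, and their mature microRNAs are shown with the seed (bases 2 to 8) in capitals, from RefSeq. The 4 seeds differ from each other.
mmu-miR-22-5p: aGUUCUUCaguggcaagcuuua
mmu-miR-22-3p: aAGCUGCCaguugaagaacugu
mmu-miR-142a-5p: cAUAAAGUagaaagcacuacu
mmu-miR-142a-3p: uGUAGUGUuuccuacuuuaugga
The libraries counted reads on the host transcripts and gave no level of the mature microRNAs.

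A few transcripts held much of the lncRNA signal. All lncRNA rows together took 0.507% of the counts, and the 60 members held 745164 of those 1043282 counts, or 71.4%. Xist had 115231 counts over the 10 libraries, Malat1 104540 and Neat1 76456, and these 3 nuclear RNAs made up 39.8% of the members' counts. The median member had 4459 counts, and 14 members reached 10000. The share of a library's counts in the members was 0.363% ± 0.0156 in WT and 0.361% ± 0.00883 in KO (SD, n = 5 each), with a range over all 10 libraries of 0.346% to 0.378%. At the lower end, Mexis (2096 counts), H2-K2 (2076) and Gm32089 (2011) stood just inside the bound, and Peg13 (1994), Cep83os (1918) and 1110002J07Rik (1854) just outside it.

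**Figure D1:**
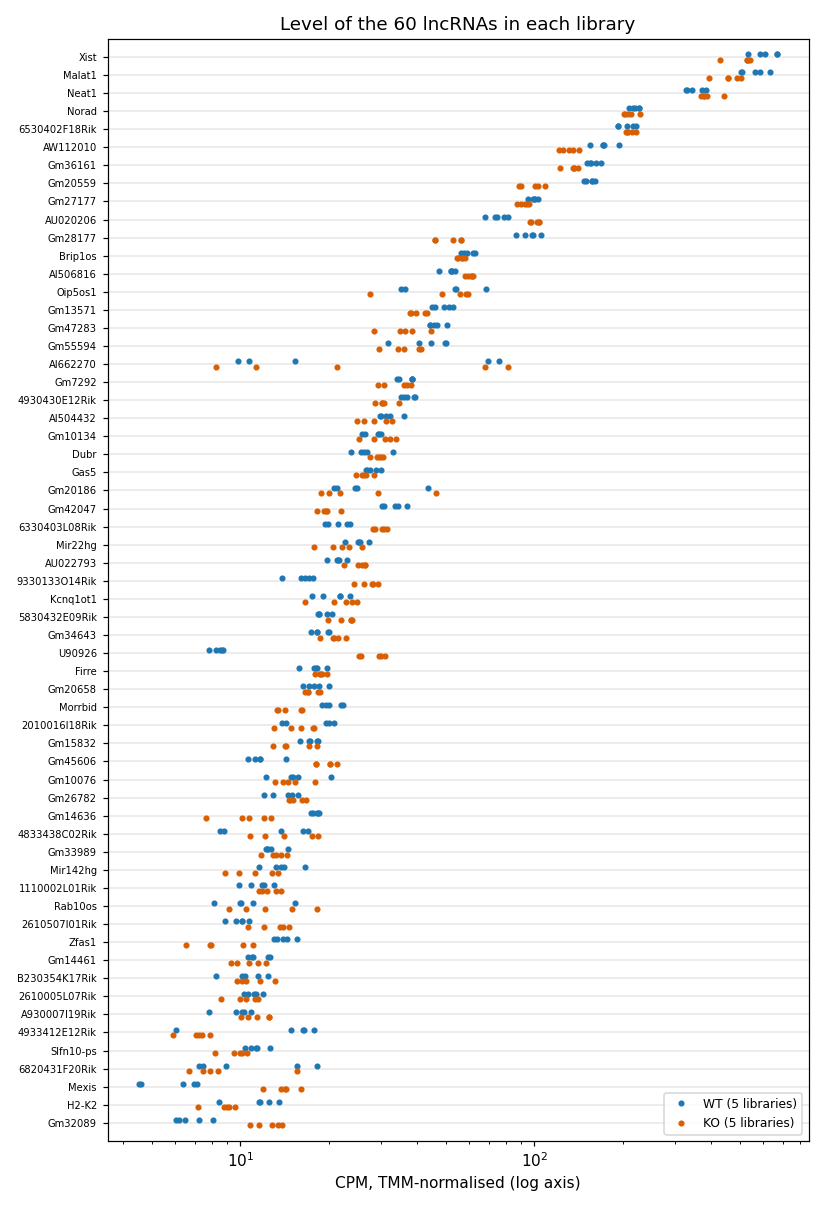
Level of each of the 60 lncRNAs in every library, in TMM-normalised CPM on a log axis; blue points are the 5 WT libraries and orange points the 5 KO libraries, ordered by summed count. Xist, Malat1 and Neat1 stand at the top, U90926 and Mexis have separate clouds of points, and the points of AI662270 fall apart within each genotype.

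Per length the order changed. Levels were divided by the length of the gene's merged exons in GENCODE M21, a GRCm38 annotation matched by gene ID, which covered 55 of the 60 members. AW112010, an interferon- and LPS-inducible RNA of myeloid cells that is known to be translated from a non-canonical reading frame, had the highest mean level over both genotypes at 189 CPM per kb. It was followed by Gm36161 at 97.1, Gm10134 at 76.8, Malat1 at 73.0, Gm55594 at 52.4 and Mir142hg at 46.7 CPM per kb. Norad (43.9), Gm10076 (39.9), 6530402F18Rik (37.9) and Gm47283 (36.8 CPM per kb) completed the first 10. The order turns on the gene length used: with the lengths recovered from the deposited FPKM, Malat1 stood at 48.9, Gm36161 at 44.8, AW112010 at 41.9 and Norad at 40.9 CPM per kb, although the deposited length of Malat1 and Norad exceeds their gene span. AW112010 measures 804 bases in GENCODE M21 and 3628 in the deposited lengths. By genotype, with M21 lengths, U90926 rose from 10.5 CPM per kb in WT to 35.5 in KO, above Gm47283 at 32.5, which left the first 10 there. Malat1 and Gm10134 also swapped places, with 80.1 and 74.4 CPM per kb in WT and 65.9 and 79.2 in KO. Xist, whose merged exons span 17946 bases, was eleventh at 31.4 CPM per kb, and the lowest was Kcnq1ot1, an unspliced imprinted transcript, at 0.229 CPM per kb. Neighbours in this order such as 6530402F18Rik and Gm47283 lie closer together than their libraries spread, so their order is not readable. With the deposited lengths Gm10134 stood at 14.2, Gm55594 at 13.8, Gm47283 at 5.51 and Mir142hg at 3.76 CPM per kb. The deposited length of Gm10134 and Mir142hg exceeds their gene span. The first 10 therefore hold for the M21 lengths only. Of the first 10, Gm10134 (log2 fold change 0.09 ± 0.08), Gm55594 (-0.25 ± 0.12), Gm10076 (-0.06 ± 0.12) and 6530402F18Rik (0.03 ± 0.05, KO minus WT with SE) did not differ between the genotypes at an adjusted p under 0.05. Norad (-0.06 ± 0.04) and Mir142hg (-0.30 ± 0.12) did not pass either.

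The members lay on 19 chromosomes, with 8 on chromosome 2, 7 on chromosome 11, 5 on chromosome 19 and 4 on X. GENCODE M21 types 22 of them as lincRNA (between genes), 13 as antisense, 13 as processed transcript and 3 as bidirectional-promoter RNA. It lists another 4 as protein-coding (U90926, Gm47283, Gm55594 and Gm10134), so the annotations disagree on whether these encode a protein. By exons, 19 of the 55 matched members shared bases with a protein-coding gene and 36 shared none. Reads on bases shared on the same strand, as in Gm28177, cannot be assigned to 1 gene. Those on bases shared on opposite strands can be assigned only if the counting used the strand. The shared part was 0.130% of the exon bases of Kcnq1ot1, 2.40% of Xist and 91.1% of Gm28177. The strand setting of the counting, which bears on bases shared on opposite strands, is not given in the sources used here.

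The share of members called lay nearer to that of protein-coding genes with the same minimum sum than to that of all tested genes. At an adjusted p under 0.05 (edgeR quasi-likelihood F test, Benjamini-Hochberg over 14436 tested genes) 26 of the 60 members passed, 11 higher and 15 lower in KO, and 34 did not. All 60 members passed the filter on low counts. That is 43.3% of members, beside 29.1% of all tested genes (14.1% higher and 15.0% lower), 37.3% of protein-coding genes with the same minimum sum and 18.2% of the 603 tested lncRNAs below it. In 18 of the 60 members no WT library overlapped any KO library, 8 higher and 10 lower, where 23.3% of all tested genes had such separate groups. Of the 8360 tested protein-coding genes with the same minimum sum, 2558 had separate groups. At least 2-fold were 3 members, U90926, Mexis and 4933412E12Rik, and 2.95% of tested genes passed at that size. All 3 reached the sum of 2000 only through their higher genotype, as did 7 of the 26 called members, so these counts are not comparable with the shares over all genes without that bias. The median log2 fold change (KO minus WT) was -0.06 over the members and 0.01 over all tested genes, and the median absolute change was 0.23 and 0.17.

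The direction of small differences depended on the scaling. With library totals in place of TMM, 19 members were higher and 9 lower, as the median of all genes moved from 0.01 to 0.12 and that of the members from -0.06 to 0.06 on the log2 scale. The TMM factors had means of 0.961 for WT and 1.04 for KO (exact permutation test, 2-sided p = 0.00794, the smallest this design allows; adjusted 0.0238 over 3 library measures). No called member changed sign under any alternative. Of the 26, 20 kept their call under all of them, and 6 lost it under at least 1: Xist, Malat1, Gm36161, Gm13571, Gm47283 and H2-K2.

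**Figure D2:**
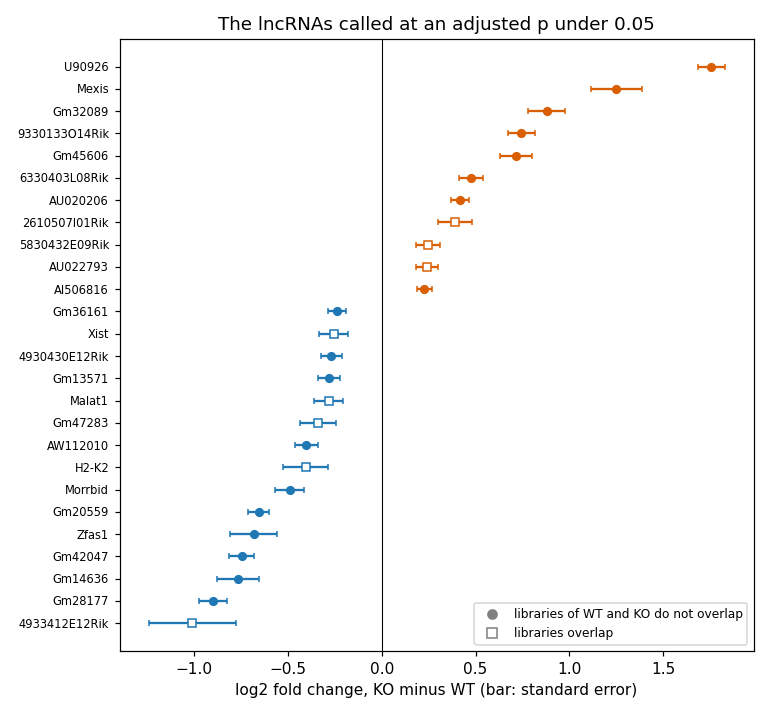
Log2 fold change (KO minus WT, horizontal axis) of the 26 lncRNAs called at an adjusted p under 0.05, with the standard error as a bar; filled circles are members whose WT and KO libraries do not overlap, open squares those whose libraries do. U90926 lies farthest to the right at 1.75 and 4933412E12Rik farthest to the left at -1.01, with a wide error.

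U90926 (ENSMUSG00000029409, chromosome 5, 92357752 to 92363267, on the minus strand), a transcript known to rise in macrophages given TLR4 ligands, showed the largest difference. Its raw counts were 167, 160, 155, 169 and 176 in WT 1 to WT 5 and 675, 685, 566, 524 and 599 in KO 1 to KO 5. As CPM these were 8.24, 8.56, 7.83, 8.65 and 8.76 in WT and 31.1, 29.6, 25.3, 25.7 and 30.2 in KO, so every KO library stood far above every WT library. The mean went from 8.41 ± 0.377 to 28.4 ± 2.67 CPM (SD, n = 5 each), a 3.37-fold rise with a log2 fold change of 1.75 ± 0.07 (SE) and an edgeR adjusted p of 5.55e-08. The nearest tested protein-coding gene, Uso1, which encodes a vesicle-tethering protein of the Golgi, lies 7.09 kb away on the other strand and was not called (138 ± 5.81 and 143 ± 5.52 CPM, log2 fold change 0.05 ± 0.04, adjusted p = 0.374).

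Mexis (ENSMUSG00000086712, chromosome 4, 53261356 to 53270232) is known as a target of the sterol-sensing liver X receptors that supports expression of Abca1, the cholesterol efflux transporter. It stood at 4.54, 4.60, 6.36, 7.12 and 6.97 CPM in WT 1 to WT 5 and 16.1, 14.3, 12.0, 14.2 and 13.8 CPM in KO 1 to KO 5. All KO libraries lay above all WT libraries, and the mean rose 2.38-fold (log2 fold change 1.25 ± 0.14, edgeR adjusted p = 3.34e-05). Abca1, 101 kb away on the same strand, was higher too, at 551 ± 36.4 CPM in WT and 725 ± 88.0 CPM in KO (log2 fold change 0.40 ± 0.08, adjusted p = 0.0032).

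9330133O14Rik (ENSMUSG00000121107, chromosome 8, 123170365 to 123173215) lies 204 bp from Mvd, which encodes mevalonate diphosphate decarboxylase of the cholesterol synthesis pathway. The lncRNA read 16.1, 13.9, 17.1, 17.7 and 16.6 CPM in WT and 26.3, 28.2, 24.4, 28.1 and 29.5 CPM in KO, with no overlap, and rose 1.67-fold (log2 fold change 0.74 ± 0.07, edgeR adjusted p = 1.47e-05). Mvd rose from 95.1 ± 3.73 to 121 ± 6.18 CPM (log2 fold change 0.35 ± 0.04, adjusted p = 0.000111). By the listed coordinates the lncRNA and Mvd do not overlap. The strand of 9330133O14Rik was not given by the annotation used, so whether they lie on the same strand cannot be told.

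Gm32089 (ENSMUSG00000114055, chromosome 13, 94425956 to 94431514) stood at 6.17, 6.48, 6.06, 8.09 and 7.26 CPM in WT and 13.9, 10.8, 11.6, 12.9 and 13.5 CPM in KO. Again the groups did not overlap, with a log2 fold change of 0.88 ± 0.10 (edgeR adjusted p = 4.56e-05). Its neighbour Scamp1, a secretory carrier membrane protein gene 3.59 kb away, was not called (0.15 ± 0.06, adjusted p = 0.101).

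A pair of antisense members rose with separate groups while the gene across from them was not called. Gm45606, opposite the amino acid transporter gene Slc43a2, had 14.3, 11.2, 11.7, 11.7 and 10.6 CPM in WT and 18.1, 20.2, 18.0, 21.3 and 20.2 CPM in KO (log2 fold change 0.72 ± 0.08), and Slc43a2 had 214 ± 11.5 and 221 ± 23.1 CPM (0.05 ± 0.07). Of the merged exon bases of Gm45606, 33% are shared with Slc43a2. 6330403L08Rik, opposite the growth factor gene Pdgfa, had 23.1, 19.5, 21.6, 23.7 and 19.9 CPM in WT and 28.3, 30.8, 30.3, 28.8 and 31.5 CPM in KO (log2 fold change 0.47 ± 0.06), and Pdgfa had 25.6 ± 1.43 and 25.8 ± 1.54 CPM (0.01 ± 0.06). Of the merged exon bases of 6330403L08Rik, 14.7% are shared with Pdgfa. In both pairs the lncRNA's libraries separated by genotype. The antisense member 5830432E09Rik, opposite Ptpre, also rose (0.25 ± 0.06), but its libraries overlapped. Ptpre was not called (0.25 ± 0.18, edgeR adjusted p = 0.340).

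AU020206 and AI506816 also rose with separate groups. AU020206, a lincRNA 14.4 kb from the kinase-anchoring gene Akap13, had 74.9, 68.2, 73.7, 78.6 and 81.4 CPM in WT and 104, 97.2, 96.7, 104 and 102 CPM in KO (log2 fold change 0.42 ± 0.05). Akap13 moved the other way, from 410.2 ± 12.9 to 304 ± 23.1 CPM (-0.43 ± 0.05, edgeR adjusted p = 6.55e-05). AI506816 had 52.6, 51.9, 47.5, 52.2 and 53.6 CPM in WT and 61.5, 59.3, 60.8, 61.9 and 58.2 CPM in KO, a smaller but separated rise (0.23 ± 0.04). Its neighbour Srpk2, a splicing-factor kinase gene on the same strand, rose by 0.40. The other called rises, 2610507I01Rik (0.39), 5830432E09Rik (0.25) and AU022793 (0.24), came with libraries that overlapped between the genotypes.

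**Figure D3:**
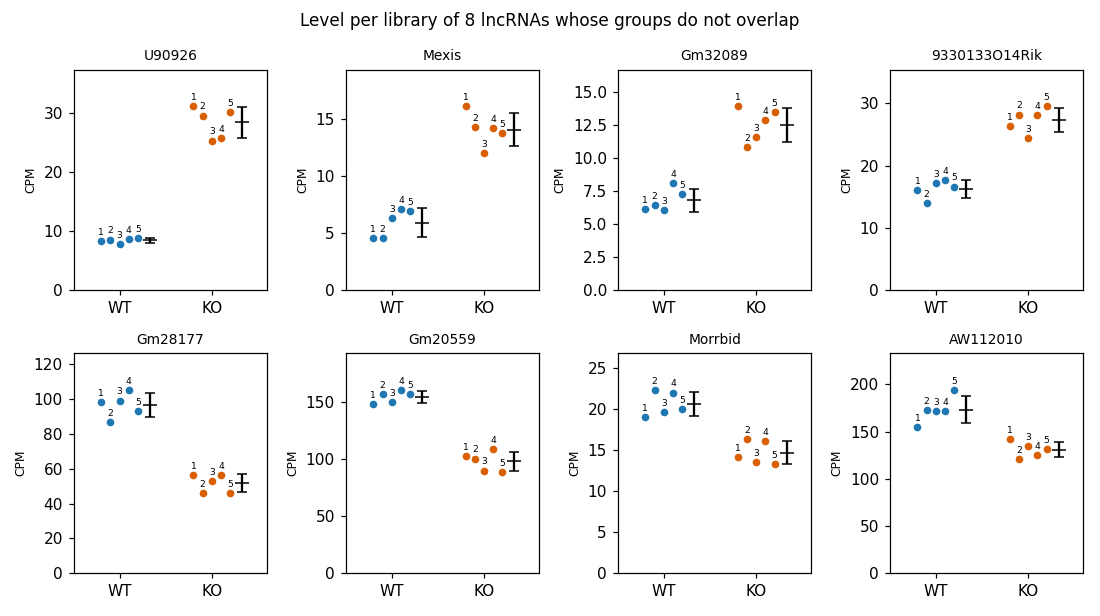
Level (CPM, vertical axis from 0) in each library of 8 lncRNAs whose WT and KO libraries do not overlap; numbers are the library numbers, and the bar beside each group is the mean with its SD (n = 5). U90926, Mexis, Gm32089 and 9330133O14Rik are higher in every KO library, and Gm28177, Gm20559, Morrbid and AW112010 lower.

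Among the members that fell, Gm28177 had the lowest edgeR adjusted p (3.72e-06). It read 98.0, 87.0, 99.0, 105 and 92.8 CPM in WT and 56.5, 46.1, 53.0, 56.6 and 46.0 CPM in KO, a log2 fold change of -0.90 ± 0.07 with no overlap. However, 91.1% of its exon bases are shared on the same strand with protein-coding exons, so its level cannot be told apart from reads of protein-coding RNA.

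Gm20559 (ENSMUSG00000106734, chromosome 6, 3333191 to 3346128) shares no exon base with a protein-coding gene. It had 148, 157, 150.5, 161 and 157 CPM in WT and 103, 101, 90.1, 109 and 88.8 CPM in KO, 1.58-fold lower, with a log2 fold change of -0.66 ± 0.06 (edgeR adjusted p = 6.16e-06). Samd9l, an interferon-induced growth-restricting gene 26.1 kb away on the same strand, fell from 311 ± 17.5 to 154 ± 19.7 CPM (-1.02 ± 0.08, adjusted p = 3.08e-06).

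Zfas1 (ENSMUSG00000074578, chromosome 2, 166904854 to 166907783), a small nucleolar RNA host that starts opposite the antiviral helicase gene Znfx1, had 13.0, 14.4, 15.6, 13.9 and 13.3 CPM in WT and 10.2, 7.98, 11.1, 7.90 and 6.55 CPM in KO. The groups did not overlap, and Zfas1 fell by 0.68 on the log2 scale (SE 0.13, edgeR adjusted p = 0.0017). Znfx1 fell from 1028 ± 18.3 to 534 ± 67.6 CPM (-0.95 ± 0.07), and 2.80% of the exon bases of Zfas1 are shared with it on the opposite strand.

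Morrbid (ENSMUSG00000074813, chromosome 2, 128020239 to 128344685), known for prolonging the life of short-lived myeloid cells by restraining the pro-apoptotic gene Bcl2l11, read 19.01, 22.3, 19.6, 22.0 and 20.002 CPM in WT and 14.1, 16.3, 13.5, 16.1 and 13.3 CPM in KO. No libraries overlapped, and the log2 fold change was -0.49 ± 0.08 (edgeR adjusted p = 0.000452). Bcl2l11, 15.8 kb away on the other strand, stood at 15.1 ± 1.78 CPM in WT and 17.5 ± 1.30 CPM in KO and was not called (0.21 ± 0.08, adjusted p = 0.0801).

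AW112010 (ENSMUSG00000075010, chromosome 19, 11021557 to 11033245) had 155, 173, 172, 172 and 194 CPM in WT and 142, 121, 135, 125 and 131 CPM in KO. Every KO library was below every WT library, with a log2 fold change of -0.40 ± 0.06 (edgeR adjusted p = 0.000462). Gm36161 (ENSMUSG00000114608, chromosome 13, 120471880 to 120480467) likewise separated, at 156, 151, 155, 162 and 169 CPM in WT and 141, 137, 137, 135 and 122 CPM in KO (-0.24 ± 0.05, adjusted p = 0.00208), but with library totals its adjusted p was 0.0729. The nearest tested genes of these members, Ms4a8a and Gm36079, were not called.

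Another group of lower members has no well-known role. Gm42047 had 30.4, 34.3, 30.8, 33.6 and 36.8 CPM in WT and 22.0, 19.7, 18.3, 19.5 and 19.3 CPM in KO (-0.75 ± 0.07), while Klhdc4, 3.68 kb away on the other strand, rose from 35.1 ± 3.73 to 62.3 ± 9.29 CPM (0.83 ± 0.11, edgeR adjusted p = 0.000112). Gm14636, on the X chromosome, had 18.4, 18.3, 17.7, 18.5 and 17.5 CPM in WT and 12.7, 7.64, 10.1, 12.1 and 10.7 CPM in KO (-0.77 ± 0.11). The WT libraries of Gm14636 lay within 1.06-fold of each other and the KO libraries within 1.66-fold. Gm13571, antisense to the endocytic receptor gene Ly75, fell by 0.28 and 4930430E12Rik by 0.27 on the log2 scale, both with separate groups. With overlapping libraries, Gm47283 (-0.34), H2-K2 (-0.41) and 4933412E12Rik (-1.01) also passed as lower. H2-K2 belongs to the class I histocompatibility gene family, so its reads may be split with near-identical copies.

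Of the nuclear-body RNAs, Malat1, which associates with nuclear speckles, had 510.4, 632, 505, 561 and 588 CPM in WT and 455, 506, 490.3, 393 and 456 CPM in KO. Its highest KO library stood just above its lowest WT library, and its log2 fold change was -0.28 ± 0.08 (edgeR adjusted p = 0.0167). Leaving out WT 2 gave an adjusted p of 0.0536, leaving out WT 5 gave 0.0528, no filter gave 0.0533, and library totals gave 0.123. Neat1, the scaffold of paraspeckles, had 328, 371, 331, 383 and 344 CPM in WT and 441, 377, 370.0, 388 and 377 CPM in KO. Its groups overlapped, it was not called (0.15 ± 0.06, adjusted p = 0.0768), and it passed with library totals (adjusted p = 0.0072) and without WT 4 (adjusted p = 0.0323).

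Xist, which coats and silences the inactive X chromosome, was the most counted member. It read 534, 667, 586, 667 and 609 CPM in WT and 429.8, 531, 529, 532 and 543 CPM in KO, with KO 1 the lowest of all and KO 5 above WT 1. The log2 fold change was -0.26 ± 0.08 (edgeR adjusted p = 0.0255), and the call was lost without WT 2 (adjusted p = 0.0702), WT 4 (0.0727) or WT 5 (0.0522), without KO 1 and KO 3 together (0.0661), with no filter (0.0584) and with library totals (0.144). Firre, an X-linked RNA tied to nuclear architecture, had 17.9 ± 1.40 CPM in WT and 18.8 ± 0.609 CPM in KO and was not called (0.07 ± 0.06), though it passed as higher with library totals (adjusted p = 0.0254). Kcnq1ot1, which silences an imprinted cluster in cis, had 20.8 ± 2.45 and 21.8 ± 3.29 CPM (0.07 ± 0.11, adjusted p = 0.698).

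The microRNA hosts, Norad, Gas5 and Oip5os1 were not called. Mir22hg had 25.1, 25.6, 22.7, 25.3 and 27.4 CPM in WT and 25.9, 23.4, 17.9, 22.2 and 20.7 CPM in KO (-0.20 ± 0.09, edgeR adjusted p = 0.136), and passed only when KO 1 was left out (adjusted p = 0.0373). Mir142hg, the precursor of a microRNA of blood cells, had 14.1, 13.8, 11.6, 16.5 and 13.2 CPM in WT and 13.5, 9.92, 8.86, 12.9 and 11.2 CPM in KO (-0.30 ± 0.12, adjusted p = 0.0981). It passed without KO 1 (adjusted p = 0.0476). Norad, which binds Pumilio proteins, had 220.4 ± 7.05 and 212 ± 11.1 CPM (-0.06 ± 0.04), and Gas5, a small nucleolar RNA host, had 28.1 ± 1.35 and 26.5 ± 1.41 CPM (-0.08 ± 0.05). Neither Norad nor Gas5 was called, and both changed sign with library totals. Oip5os1, which directs decay of miR-7, had 49.6 ± 14.0 and 49.97 ± 13.2 CPM (0.01 ± 0.23) with a spread far wider than that of Norad or Gas5. The 34 uncalled members ran from -0.32 to 0.25 on the log2 scale, and 28 of them lay within 0.2 of 0.

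Lists of lncRNAs with a known role show the called members among relatives below the bound. Of 14 tested inflammation-linked lncRNAs, 1 was higher (U90926), 4 were lower (AW112010, Gm36161, Morrbid and Gm16685, the last at -0.53 ± 0.13), and 9 were not called, with a median of -0.02. Among the 16 tested genes of the small RNA host list, which leaves out Zfas1, 0 were higher and 2 were lower, Dleu2 at -0.97 ± 0.29 and Snhg3 at -0.40 ± 0.13 (median -0.10). The 7 tested genes of the microRNA host list, which leaves out Dleu2, held 1 rise, Mir99ahg at 0.76 ± 0.25, from a low mean of 0.571 CPM in WT (median -0.30). In the X inactivation and imprinting list, 1 of 9 was higher (Peg13, 0.76 ± 0.10) and 1 lower (Xist), with a median of 0.07. Among the 13 widely expressed lncRNAs, 0 were higher and 2 lower, Zfas1 and Lockd at -0.74 ± 0.22 (median -0.03). Called shares in these lists sit beside 29.1% of all tested genes.

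Neighbouring protein-coding genes were paired with the members by the table's own coordinates, as the overlapping tested gene or else the nearest. Of 8 higher members paired with a nearest gene, the gene was higher in 3 cases, lower in 2 and not called in 3. Of 8 lower members so paired, it was lower in 2, higher in 1 and not called in 5. Where a gene overlapped, the 3 higher members had 0 partners called, and the 4 lower members had 2 lower partners and 2 not called. The lower partners were Znfx1 and the partner of Gm28177. Gm28177 shares 91.1% of its exon bases with protein-coding exons on the same strand. Its direction therefore cannot be told apart from that of protein-coding RNA. Among the 28 uncalled members with a partner, 11 partners were lower and 3 higher. Of all tested genes 15.0% were lower and 14.1% higher, and 37.3% of protein-coding genes with the same minimum sum were called, so with 3 to 28 pairs these counts are given as they stand. Gm34643, for example, had 18.8 ± 1.14 and 20.9 ± 1.52 CPM and was not called (0.15 ± 0.06), while Acod1, the itaconate-producing enzyme gene 22.5 kb away on the same strand, fell from 4199 ± 342 to 2321 ± 115 CPM. 4833438C02Rik, opposite the NF-kB subunit gene Nfkb2, was not called (0.17), while Nfkb2 fell by 0.46 on the log2 scale.

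**Figure D4:**
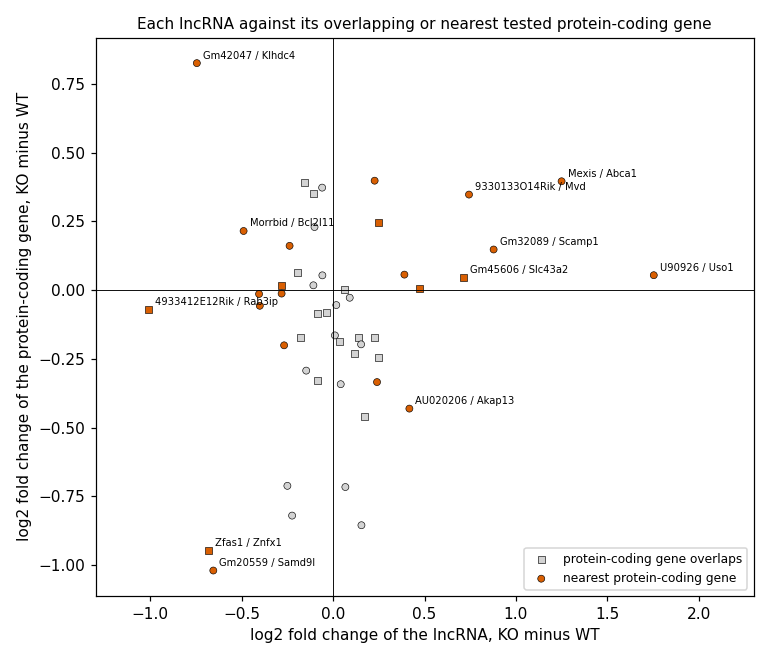
Log2 fold change of each lncRNA (horizontal) against that of its overlapping (squares) or nearest (circles) tested protein-coding gene (vertical), both KO minus WT; orange marks the lncRNAs that were called and grey those that were not. The pair of Gm28177 is not drawn. Zfas1 and Gm20559 fell together with Znfx1 and Samd9l, Mexis and 9330133O14Rik rose with Abca1 and Mvd, and U90926 rose beside an uncalled Uso1. Other pairs moved in opposite directions: Gm42047 fell while Klhdc4 rose, and AU020206 and AU022793 rose while Akap13 and Lrp12 fell.

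A handful of members varied more within a genotype than between the genotypes. AI662270 had 9.82, 69.6, 15.4, 10.7 and 75.6 CPM in WT and 81.2, 8.24, 11.3, 21.3 and 67.7 CPM in KO, with WT 2, WT 5, KO 1 and KO 5 high and KO 4 between, a 7.69-fold range in WT and 9.86-fold in KO. Gm20186 had 24.9, 24.6, 20.8, 21.2 and 43.4 CPM in WT and 46.5, 29.3, 18.8, 21.8 and 20.1 CPM in KO, highest in WT 5 and KO 1. 6820431F20Rik had 18.2, 8.94, 7.47, 7.22 and 15.6 CPM in WT and 6.68, 7.90, 15.6, 7.46 and 8.42 CPM in KO, highest in WT 1, WT 5 and KO 3. None of these 3 was called, and their standard errors (0.75, 0.27 and 0.31 on the log2 scale) were all larger than that of any called member. Oip5os1 ranged 1.96-fold in WT and 2.16-fold in KO.

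4933412E12Rik, which overlaps the vesicle-transport gene Rab3ip on the other strand, was called lower although WT 4 stood with the KO libraries. It read 16.4, 14.9, 16.4, 6.04 and 17.8 CPM in WT and 7.05, 7.25, 7.43, 7.90 and 5.90 CPM in KO. The log2 fold change was -1.01 ± 0.23 (edgeR adjusted p = 0.00668) and -1.19 without WT 4 (adjusted p = 6.77e-06). Without the 5 members spread over 2-fold within a genotype, 25 of 55 members were called, 11 higher and 14 lower.

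**Figure D5:**
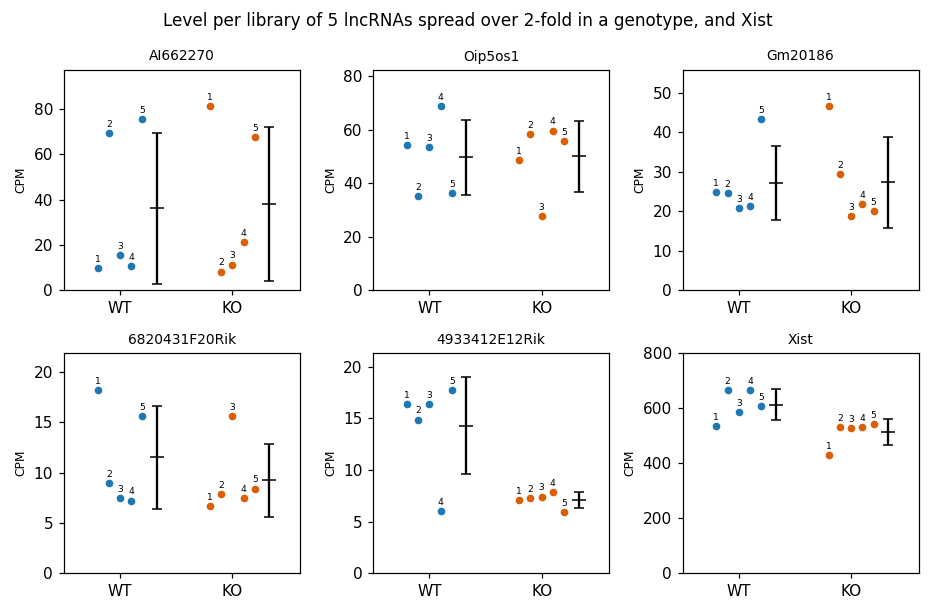
Level (CPM, vertical axis from 0) in each library of the 5 lncRNAs that spread over 2-fold within a genotype, and of Xist for comparison; numbers are the library numbers, and bars show mean and SD (n = 5). AI662270 falls into high and low libraries in both genotypes, and WT 4 is low for 4933412E12Rik.

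Libraries held 19319512 to 22766319 counts, with no difference in depth beyond the spread (exact permutation test, 2-sided p = 0.817). Mitochondrial genes took 1.40% of WT and 1.54% of KO counts (exact permutation p = 0.0476, adjusted 0.0714). Summed macrophage markers ran from 24059 to 25618 CPM in WT and 23076 to 25066 CPM in KO, with 2 of 8 higher and 2 lower. Mast cell markers summed to 16.0 to 22.9 CPM in WT and 8.01 to 10.3 in KO (4 of 5 tested lower), and neutrophil markers to 14.9 to 19.2 and 23.1 to 27.1 CPM (2 of 2 tested higher). Fibroblast and mesothelial markers summed to 573 to 636 CPM in WT and 596 to 767 in KO (3 of 8 tested higher, 2 lower). B cell markers summed to 1.59 to 3.75 CPM in WT and 0.690 to 1.61 in KO (1 tested, lower), and T and NK cell and dendritic markers stayed under 3.1 CPM in every library, with Cd3e, Ncr1, Xcr1, Siglech and Cd209a at 0. These lists move with the genotype in part, and their part in the members' differences was not tested. In bulk RNA, fewer cells of a type and less RNA per cell cannot be told apart.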

How the data were processed

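RNA from 10 macrophage libraries (5 WT, 5 KO) was analysed from whole-number counts per gene that the authors deposited, per the file headers. The deposited FPKM values of WT served to recover the gene lengths the authors used, which exceed the gene span for 23 members, so levels per length use GENCODE M21 exons; 5 FPKM columns were not used. The submitters' processing notes name CASAVA 1.8 and TopHat2 2.0.6 and the builds mm10 and GRCm39, without a role. For the counter, its annotation and strand setting, nothing was found: they were not given in the sources used here. Coordinates are as the table lists them.

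Counts were fitted with edgeR 4.0.16 (R 4.3.3, quasi-likelihood F test, TMM, filterByExpr with a minimum count of 10), as KO minus WT, and p-values were adjusted by Benjamini-Hochberg over the 14436 genes. Genes with an adjusted p under 0.05 were called. CPM values use TMM factors. The SE is the log2 fold change divided by the square root of F. The biological coefficient of variation was 12.8%. The samples share replicate numbers, which were not used as a block. Alternatives were DESeq2 1.42.0 (size factors and Wald test), library totals, no filter, 50 counts in 5 libraries, a replicate block, robust edgeR, limma-voom (limma 3.58.1) and each library left out. The settings without KO 1 and KO 3, without widely spread members and with deposited gene lengths were added after seeing the data. Libraries held 19319512 to 22766319 counts, and a count of 3 allows 0.132 to 0.155 CPM.

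On simulated data of 14254 genes, KO against WT, with 50 changed genes of each size, 18% of the 1.2-fold, 70% of the 1.5-fold, 88% of the 2-fold and 100% of the 4-fold changes were found, beside 5 false calls among 14055 genes. The changed genes were drawn from tested genes of any level. Variation between libraries followed the fitted trend over level, without differences between single genes. These rates therefore do not describe the members, which are all abundant.

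The members and lists were chosen with earlier results of these data known. Named with values were U90926, the 10 highest members per length, the called members whose groups do not overlap (up to 10 in each direction), every member in the lists, and the overlapping or nearest protein-coding gene of these; other genes were named after their values were seen. A neighbouring gene and a list of cell markers are not reported here.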

Additional observations from a re-analysis of the deposited data

Results flagged for a closer look

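In 68 groups of 5 libraries (34 named members, each genotype), 5 groups had 1 library whose gap to the nearest other exceeded Dixon's 95% critical value of 0.71 of the range; chance alone flags about 1 group in 20. Xist in KO 1 stood at 429.8 CPM, below 528.6 to 543.4 in the other KO libraries. Neat1 in the same library stood at 440.6 CPM, above 370.0 to 387.8. AI506816 in WT 3 was at 47.5 CPM against 51.9 to 53.6 in the other WT libraries. Gm45606 in WT 1 was at 14.3 CPM against 10.6 to 11.7. 4933412E12Rik in WT 4 was at 6.04 CPM against 14.9 to 17.8.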

How the results depend on the processing

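The count of called members (26) lay between 22 and 31 over the alternatives run, leaving out 1 library included. Library totals gave 19 members higher and 9 lower, and 4231 higher and 1361 lower over all genes (2036 and 2164 with TMM); they omit the composition factor that differs between the genotypes. With the replicate block 27 members were called (11 higher, 16 lower) and 3780 genes. Mir142hg then passed (adjusted p = 0.0224) and H2-K2 did not (adjusted p = 0.0546). Same-numbered libraries had correlations of 0.09, -0.05, -0.10, -0.02 and 0.13 in their deviations from the group means, and 1 of 5 WT libraries correlated best with its own number. No strong signal was thus shared by libraries of the same number. Whether equal numbers mark pairs cannot be told from these correlations. Without KO 1 and KO 3, 26 members were called (12 higher, 14 lower). The uncalled list members that changed sign were Norad (to 0.0559) and Gas5 (to 0.0331) with library totals, and Oip5os1 (-0.000309 with limma-voom, and between -0.0836 and 0.164 with 1 library left out); the cause was not tested. Of 646 values of listed or called members under an alternative, 609 kept direction and side of the threshold, 23 lost the call and 6 gained it. The counts of 3876 behind U90926 and about 2000 behind the smallest members limit precision for small changes.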

Other observations

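Gm47283 is listed on chromosome Y, at 90796007 to 90827734, and stood between 28.5 and 50.5 CPM in all 10 libraries. Of 4 other Y-linked genes, Eif2s3y, Uty and Kdm5d had 0 counts in every library and the highest count of any was 1, while Xist lay between 429.8 and 667 CPM in all 10. The source of the Gm47283 reads was not tested.

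AI662270 and its neighbour Slfn3, 8.42 kb away on the same strand, were not alike in their values: Slfn3 stood at 16.3 ± 0.983 CPM in the WT group and 9.92 ± 0.197 in the KO group (-0.72 ± 0.06, edgeR adjusted p = 2.28e-06), while AI662270 had 36.2 ± 33.3 and 38.0 ± 34.0 CPM. The pseudogene Slfn10-ps, near Slfn8, was not called (-0.22 ± 0.08, adjusted p = 0.0518), and Slfn8 fell by 0.82 on the log2 scale. Reads of these related genes may be split between copies.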
